A study of Mus musculus with 12 samples.

Results

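The 78 genes described here carry the symbols of mitochondrial ribosomal proteins and were measured in mouse intestinal epithelial cells. They were taken from the deposited expression table of 55421 genes by symbol, as Mrpl or Mrps followed by a digit. Of 83 matching symbols, 5 carried the pseudogene suffix -ps and were left out. All 78 that remained reached 1 TPM (the deposited unit, a level per transcript length scaled to 1 total in every library) in at least 3 of 12 libraries, and none failed. The rule used symbol and level only, not the comparison between genotypes, but the set was chosen with earlier results of these data known. The study profiled total RNA from epithelial cells of the jejunum, the middle stretch of the small intestine, in 4 groups of 3 libraries. The groups were Fzd5KO at day 1, Ctrl at day 1, Fzd5KO at day 3 and Ctrl at day 3. The label Fzd5KO names a knockout of Fzd5, a Frizzled receptor for Wnt ligands; which part of the gene was deleted is not given in the labels. The labels give neither the allele or driver behind the knockout, nor the genotype of Ctrl, the strain or age of the mice, or the event from which days were counted. They also do not say whether libraries of a group came from separate animals, so p-values here measure the spread between libraries, which may be technical.

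The mitochondrial ribosome, or mitoribosome, translates the few mRNAs of the mitochondrial genome, which encode membrane subunits of the respiratory chain and ATP synthase. Its rRNAs are made inside the organelle, whereas all of its proteins are encoded in the nucleus, translated in the cytosol and imported. Some of these proteins descend from the bacterial ribosome and others are found only in mitochondria. In the intestine, dividing crypt cells and absorptive villus cells both depend on oxidative phosphorylation. By current nomenclature 51 of the 78 genes encode large subunit proteins and 26 encode small subunit proteins. Mrps30 and Mrps18a, despite their symbols, belong to the large subunit. Mrps36, the one gene left, encodes a subunit of the alpha-ketoglutarate dehydrogenase complex and not a ribosomal protein. Of the 77 ribosomal genes, 46 have a bacterial counterpart and 31 are mitochondrion-specific. The members lie on 17 chromosomes.

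Promoters differed widely in the motifs they held. RefSeq promoter sequence (GRCm38.p6, from 250 bases before to 50 bases after the annotated start) was found for 69 of the 78 genes, and 4 motifs of factors tied in the literature to genes of mitochondrial biogenesis or growth were searched on both strands. CCGGAAG, the core bound by ETS factors such as GABP, was in 26 of the 69 promoters (37.7%), against 8.86% of all 32851 promoters and 20.8% of those of the tested genes. GCGCATGC, part of the site of nuclear respiratory factor NRF1, was in 8 (11.6%), against 2.71% of all promoters and 6.07% of those of tested genes. AAGATGGCG, bound by YY1, was in 8 (11.6%), against 1.40% and 3.75%. The E-box CACGTG, which Myc and Max can bind, was in 5 (7.25%), against 7.15% and 11.7%. The end of CCGGAAG and the start of AAGATGGCG share the letters AAG, so that 1 stretch can hold both. None of these motifs occurred in 31 promoters, 1 in 29 and 2 in 9. The 5 stretches below, chosen from those that overlap no annotated exon, are shown because they belong to genes whose values are given below: Mrps22 and Mrpl52, which were among the most changed, Mrpl48 and Mrpl58 of the central protuberance, and Mrpl10 of the stalk, which was called between genotypes at neither day. Each is printed 5′ to 3′ on the strand of its gene, with the motif or its reverse complement in capitals.
Mrps22 (ETS motif, chr9:98601680-98601720, minus strand): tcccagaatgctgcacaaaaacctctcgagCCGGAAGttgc
Mrpl52 (ETS motif on the opposite strand, chr14:54426832-54426898, plus strand): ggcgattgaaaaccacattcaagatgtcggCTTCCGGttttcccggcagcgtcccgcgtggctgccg
Mrpl48 (ETS motif on the opposite strand, chr7:100583131-100583194, minus strand): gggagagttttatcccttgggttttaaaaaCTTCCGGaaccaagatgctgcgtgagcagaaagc
Mrpl58 (ETS motif, chr11:115403705-115403751, plus strand): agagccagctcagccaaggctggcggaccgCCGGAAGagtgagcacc
Mrpl10 (NRF1 motif on the opposite strand, chr11:97041418-97041485, plus strand): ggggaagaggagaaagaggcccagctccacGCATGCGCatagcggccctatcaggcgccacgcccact

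All 78 genes were expressed at moderate level in every library. The lowest value was 7.01 TPM and the highest 106 TPM, and 74 genes stayed at or above 10 TPM in all 12 libraries. Mrps21, the counterpart of a small bacterial small subunit protein, was the most abundant per length, with 94.5, 93.6 and 93.0 TPM in Fzd5KO and 106, 101 and 90.1 TPM in Ctrl libraries at day 3. Mrps30 was the least abundant, with 7.01, 7.43 and 7.14 TPM in Fzd5KO and 10.4, 10.1 and 8.91 TPM in Ctrl libraries at day 3. Large and small subunit genes sat at like levels: the ratio of their median TPM was between 0.980 and 1.10 in the 12 libraries. Libraries of a group lay close together, with a median coefficient of variation over the members of 4.18% in Fzd5KO at day 1, 7.05% in Ctrl at day 1, 5.30% in Fzd5KO at day 3 and 5.48% in Ctrl at day 3. The widest spread was that of Mrpl23 (up to 22.7%), whose pseudogene Mrpl23-ps1 is listed separately. At day 3 Mrpl23 had 27.9, 27.0 and 24.1 TPM in Fzd5KO libraries, against 45.9, 38.7 and 28.9 TPM in Ctrl libraries. Mrpl23-ps1 had 1.91, 7.46 and 5.33 TPM in Fzd5KO libraries, and in Ctrl libraries was listed at 0 in 2 and at 5.23 TPM in the third. The library with the lowest Mrpl23 in Ctrl was thus the one with pseudogene signal, and how reads were split between these near-identical genes makes the level of Mrpl23 uncertain.

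The libraries' depth is unknown, because the table holds TPM and not counts. Genes above 0 numbered 21506 to 24467 per library, with the highest number in Ctrl day 1 replicate 1. Fzd5 itself had 31.9, 33.1 and 33.1 TPM in Fzd5KO, against 43.5, 49.4 and 46.8 TPM in Ctrl libraries at day 1, and 39.7, 37.8 and 38.3 TPM in Fzd5KO, against 68.2, 65.9 and 60.5 TPM in Ctrl libraries at day 3. It was called lower at both days (log2 difference -0.50 ± 0.05 and -0.73 ± 0.05), with means of 32.7 TPM in Fzd5KO and 46.6 TPM in Ctrl at day 1, and 38.6 TPM in Fzd5KO and 64.8 TPM in Ctrl at day 3. These levels show a lower amount and not an absence of Fzd5 transcript in the libraries labelled Fzd5KO. The small cytoplasmic Rn7s RNAs took 26.2% to 27.2% of all TPM in Fzd5KO and 22.9% to 25.7% in Ctrl at day 1, and 19.7% to 21.9% in Fzd5KO and 19.8% to 21.1% in Ctrl at day 3. TPM are shares of a fixed total, and the counts are therefore given beside those under 3 other scalings of the libraries. These were quantile normalization, median-of-ratios scaling, and rescaling after removal of mitochondrially encoded genes, small cytoplasmic RNAs and the 20 most abundant genes.

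The summed level of the 78 genes was lower in Fzd5KO than in Ctrl at day 3 and did not separate the genotypes at day 1. At day 3 it was 2178 to 2210 TPM in Fzd5KO and 2501 to 2652 TPM in Ctrl libraries. At day 1 it was 2280 to 2310 TPM in Fzd5KO and 2223 to 2327 TPM in Ctrl libraries. All Fzd5KO libraries of day 3 therefore lay below all other libraries, and all Ctrl libraries of day 3 above them. The large subunit genes summed to 1434 to 1451 TPM in Fzd5KO and 1649 to 1746 TPM in Ctrl at day 3, and the small subunit genes to 691 to 715 TPM in Fzd5KO and 813 to 860 TPM in Ctrl. In bulk RNA, fewer cells of a type and less RNA per cell cannot be told apart.

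**Figure D1:**
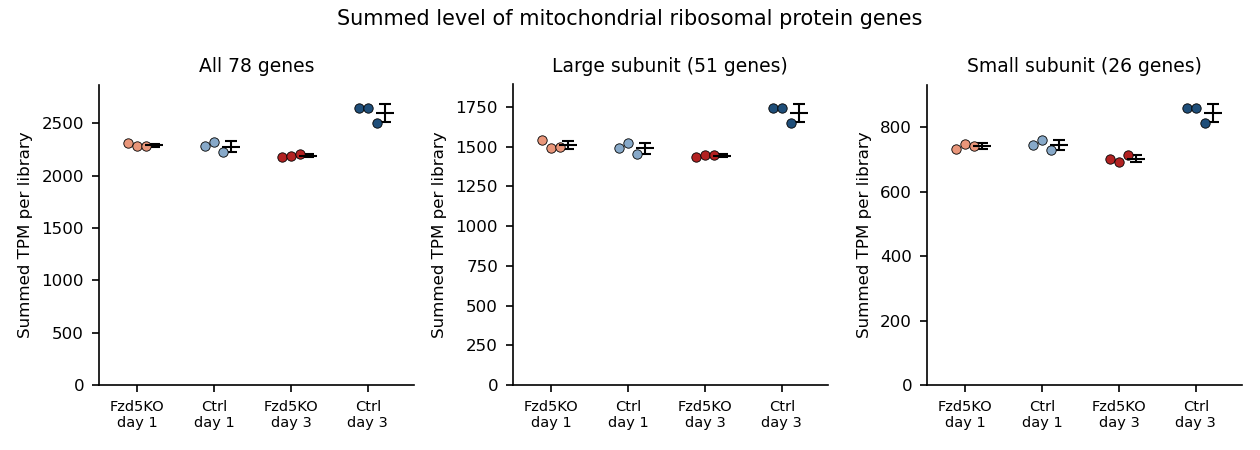
Summed TPM of all 78 genes, the 51 large subunit genes and the 26 small subunit genes in each library (points), with the mean and SD of 3 libraries (bars) beside them. At day 3 the Fzd5KO libraries sum to 2178 to 2210 TPM and the Ctrl libraries to 2501 to 2652 TPM over all 78 genes, whereas the day 1 groups overlap.

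At day 1 few mitoribosomal genes were called between the libraries labelled Fzd5KO and Ctrl. Changes were tested on log2(TPM + 1) with limma over 14510 genes, and a gene was called where its Benjamini-Hochberg adjusted p over all of them was below 0.05. This scale understates the change of low genes. At day 1, 3 of 78 members were called higher in Fzd5KO, against 2.13% of all tested genes, and 1 was called lower, against 22.8%. The members' median log2 difference was -0.01, and that of all tested genes was -0.14. Mrpl52, a mitochondrion-specific large subunit protein, had 47.2, 44.8 and 48.5 TPM in Fzd5KO, against 37.9, 35.0 and 39.6 TPM in Ctrl libraries at day 1. Every Fzd5KO library was above every Ctrl library, and the log2 difference was 0.31 ± 0.05 (SE, adjusted p = 0.00252). Mrpl35, the counterpart of bacterial L35, had 19.9, 20.5 and 18.6 TPM in Fzd5KO, against 16.3, 16.2 and 17.0 TPM in Ctrl libraries, and its log2 difference was 0.24 ± 0.06 (adjusted p = 0.0157). Mrpl32, which in yeast is cut to its mature form by an inner membrane protease before it joins the ribosome, had 24.1, 24.0 and 25.3 TPM in Fzd5KO, against 21.4, 19.6 and 23.2 TPM in Ctrl libraries. Its log2 difference was 0.19 ± 0.06 (adjusted p = 0.0336). For both genes the groups did not overlap. The call of Mrpl35 was lost without Fzd5KO day 1 replicate 2 (adjusted p = 0.0595) and without Ctrl day 1 replicate 2 (0.0523), and that of Mrpl32 without any one of Fzd5KO day 1 replicates 1, 2 and 3 or Ctrl day 1 replicates 1 and 2 (adjusted p up to 0.114).

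Mrps9, the counterpart of bacterial S9, whose tail reaches towards the decoding site in bacteria, was the 1 member called lower at day 1. It had 25.5, 26.1 and 27.1 TPM in Fzd5KO, against 33.1, 31.1 and 30.7 TPM in Ctrl libraries, with no overlap and a log2 difference of -0.26 ± 0.04 (adjusted p = 0.00233). Under the 3 other scalings this difference was between -0.10 and -0.14 and no longer called. The scalings moved the median of all tested genes at day 1 by 0.14, 0.14 and 0.10, in the order given above. Under them 15, 27 and 13 members were called higher and 0 lower, and the sign of the members' median turned, to 0.12, 0.15 and 0.11. Of all tested genes 851, 1277 and 785 were called higher and 920, 911 and 1085 lower, of 14510, 14510 and 14472. Set against the median of all genes, the members' median was higher by 0.13 as deposited and by 0.12 to 0.15 under the other scalings. The 3 members called higher as deposited were called higher under all 3, with larger values under quantile normalization and median-of-ratios scaling for Mrpl35 (0.39 and 0.40) and Mrpl32 (0.32 and 0.34). Without Fzd5KO day 1 replicate 2, 1 member was called higher. Called lower were 3 members without Ctrl day 1 replicate 3, and 2 without Fzd5KO day 1 replicate 1, 2 or 3, Fzd5KO day 3 replicate 3 or Ctrl day 3 replicate 3.

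At day 3 most mitoribosomal genes were lower in Fzd5KO. Of 78 members, 49 were called lower (62.8%), against 38.5% of all tested genes, and 1 was called higher, against 24.3%. The median log2 difference was -0.24, with a range of -0.68 to 0.19, and 70 of 78 values were negative. Over all tested genes the median was -0.14. Of the 7056 tested genes whose mean level lay within the members' range, 38.7% were called lower and 30.03% higher. In 51 of the 78 genes every Fzd5KO library lay below every Ctrl library, which held for 40.8% of all tested genes. Quantile normalization gave 1 higher and 42 lower, median-of-ratios scaling 6 higher and 25 lower, and the rescaling 0 higher and 62 lower. Of all tested genes, they called 3984, 4567 and 3102 higher and 4402, 4248 and 6449 lower, of 14510, 14510 and 14472. Under median-of-ratios scaling the members' share called lower was thus near that of all genes, and their share called higher was below it. These scalings moved the median of all tested genes by 0.11, 0.12 and -0.08. The members' median stayed negative under each, at -0.22, -0.11 and -0.33, and was below that of all genes by 0.18, 0.09 and 0.10, against 0.10 as deposited. Of the 49 genes called lower, 24 were called lower under all 3 other scalings.

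**Figure D2:**
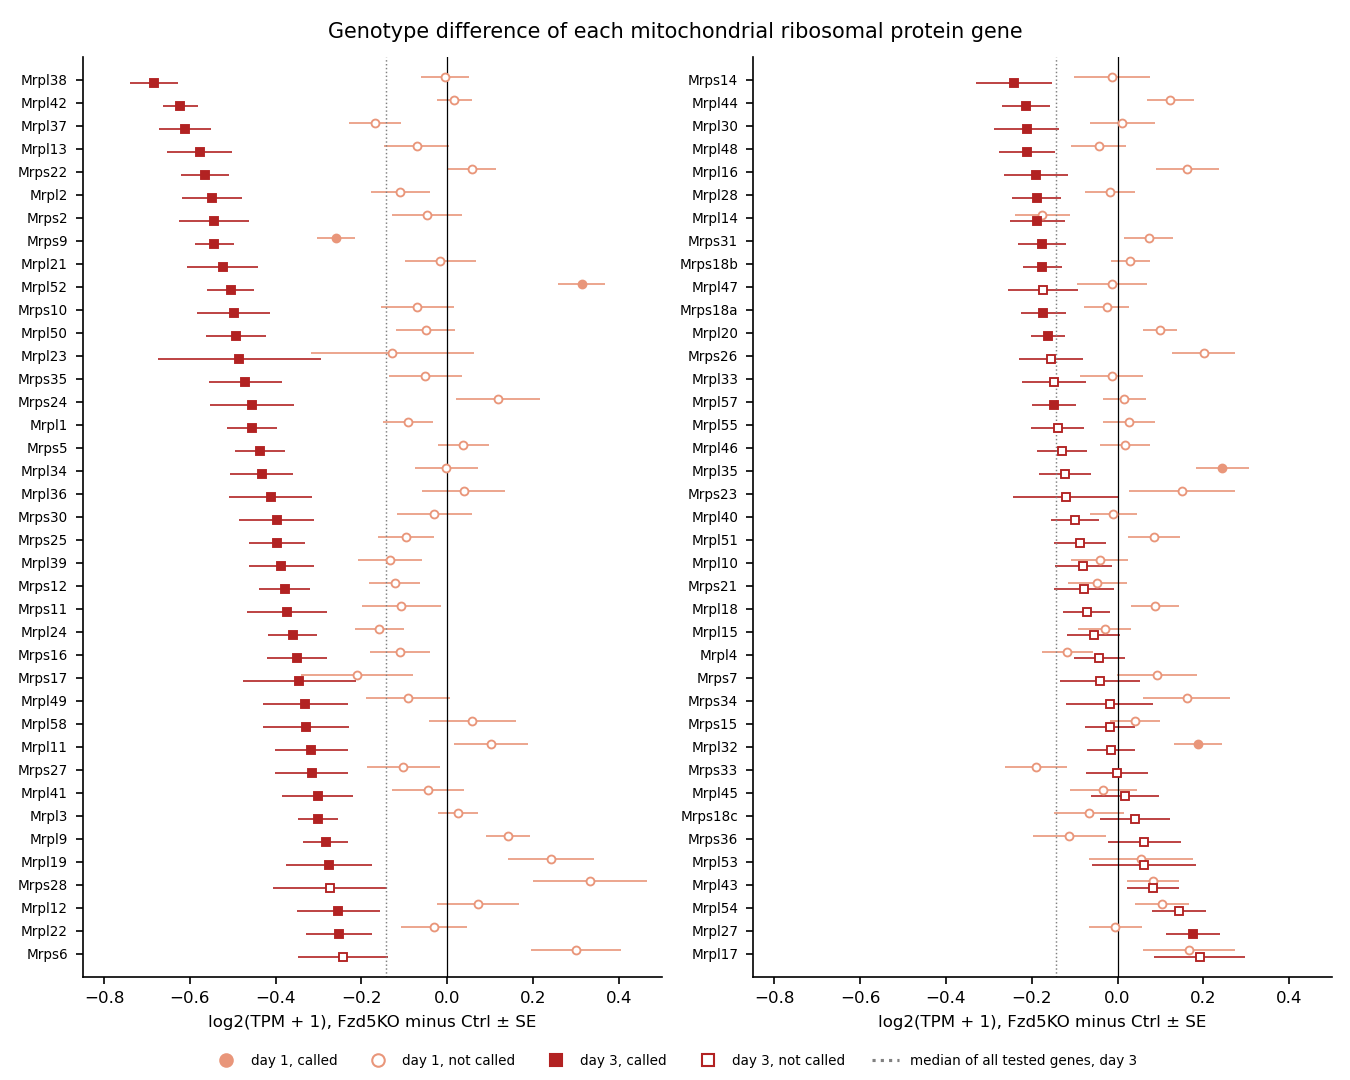
Log2 difference in TPM + 1, Fzd5KO minus Ctrl, of each of the 78 genes at day 1 (circles) and day 3 (squares) with its standard error, ordered by the day 3 value; filled symbols passed the test. At day 3, 70 of 78 values lie below 0 and 49 are called lower, while day 1 values scatter about 0 with 4 calls; under the other scalings the day 1 median turns positive (0.11 to 0.15).

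The 5 largest falls at day 3 were in 4 large subunit genes and 1 small subunit gene. Mrpl38 (ENSMUSG00000020775, chr11:116131817-116138868 in mm10), a mitochondrion-specific protein of the central protuberance with a fold like that of phosphatidylethanolamine-binding proteins, had 22.8, 22.3 and 22.8 TPM in Fzd5KO, against 37.0, 39.5 and 34.5 TPM in Ctrl libraries. The Fzd5KO mean was 61.2% of the Ctrl mean, and the log2 difference was -0.68 ± 0.06 (adjusted p = 9.78e-07). Its day 1 libraries overlapped, with 25.1, 27.2 and 24.8 TPM in Fzd5KO and 25.9, 26.7 and 24.8 TPM in Ctrl. Mrpl42 (chr10:95480805-95501940), another mitochondrion-specific large subunit protein, had 51.5, 53.0 and 51.3 TPM in Fzd5KO, against 81.7, 78.4 and 81.2 TPM in Ctrl libraries, a log2 difference of -0.62 ± 0.04 (adjusted p = 1.34e-07). Among the members it was the third most abundant per length. Mrpl37 (chr4:107055874-107066868), a relative of Mrps30 in the large subunit, had 19.9, 20.6 and 20.1 TPM in Fzd5KO, against 31.8, 33.4 and 29.2 TPM in Ctrl libraries, a log2 difference of -0.61 ± 0.06 (adjusted p = 5.07e-06).

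Mrpl13 (chr15:55534094-55557748), the counterpart of a bacterial protein that binds early in large subunit assembly, had 15.7, 17.8 and 18.7 TPM in Fzd5KO, against 26.4, 27.1 and 25.6 TPM in Ctrl libraries. Its log2 difference was -0.58 ± 0.08 (adjusted p = 4.5e-05). Mrpl13 overlaps Mtbp on the opposite strand, and the labels do not say whether reads were counted by strand. Mrps22 (chr9:98588730-98601660), a mitochondrion-specific small subunit protein whose mutation in humans causes a deficiency of oxidative phosphorylation, had 16.3, 16.6 and 14.7 TPM in Fzd5KO, against 24.2, 24.9 and 22.7 TPM in Ctrl libraries, a log2 difference of -0.57 ± 0.06 (adjusted p = 4.52e-06). In none of these 5 genes did the groups overlap at day 3, and all 5 were called lower under every alternative run. Of the 78 members, 28 overlap an annotated gene with a mean of 1 TPM or more, 22 of them one on the opposite strand and 8 one on the same strand.

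Mrpl27 was the 1 member called higher at day 3. It is the counterpart of bacterial L27, whose tail reaches the peptidyl transferase centre in bacteria. It had 33.1, 36.1 and 36.5 TPM in Fzd5KO, against 31.0, 31.3 and 30.8 TPM in Ctrl libraries, with no overlap and a log2 difference of 0.18 ± 0.06 (adjusted p = 0.0277). The call was lost without Fzd5KO day 3 replicate 2 (adjusted p = 0.0809), replicate 3 (0.0919) or any one of the 3 Ctrl day 3 libraries (0.0539 to 0.0619), and under the rescaling (log2 difference 0.10, adjusted p = 0.155), while median-of-ratios scaling gave 0.32. Mrpl54, placed here with the stalk, had 58.6, 62.1 and 58.1 TPM in Fzd5KO, against 54.2, 56.1 and 51.4 TPM in Ctrl libraries, also without overlap, and was not called (log2 difference 0.14, adjusted p = 0.0676). Mrps36, which is not a ribosomal protein, had 41.1, 47.7 and 44.6 TPM in Fzd5KO, against 42.6, 45.6 and 39.4 TPM in Ctrl libraries. These groups overlapped, and Mrps36 was called in none of the 5 comparisons as deposited (0.06 at day 3); under median-of-ratios scaling its day 3 difference was 0.20 (adjusted p = 0.0343).

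**Figure D3:**
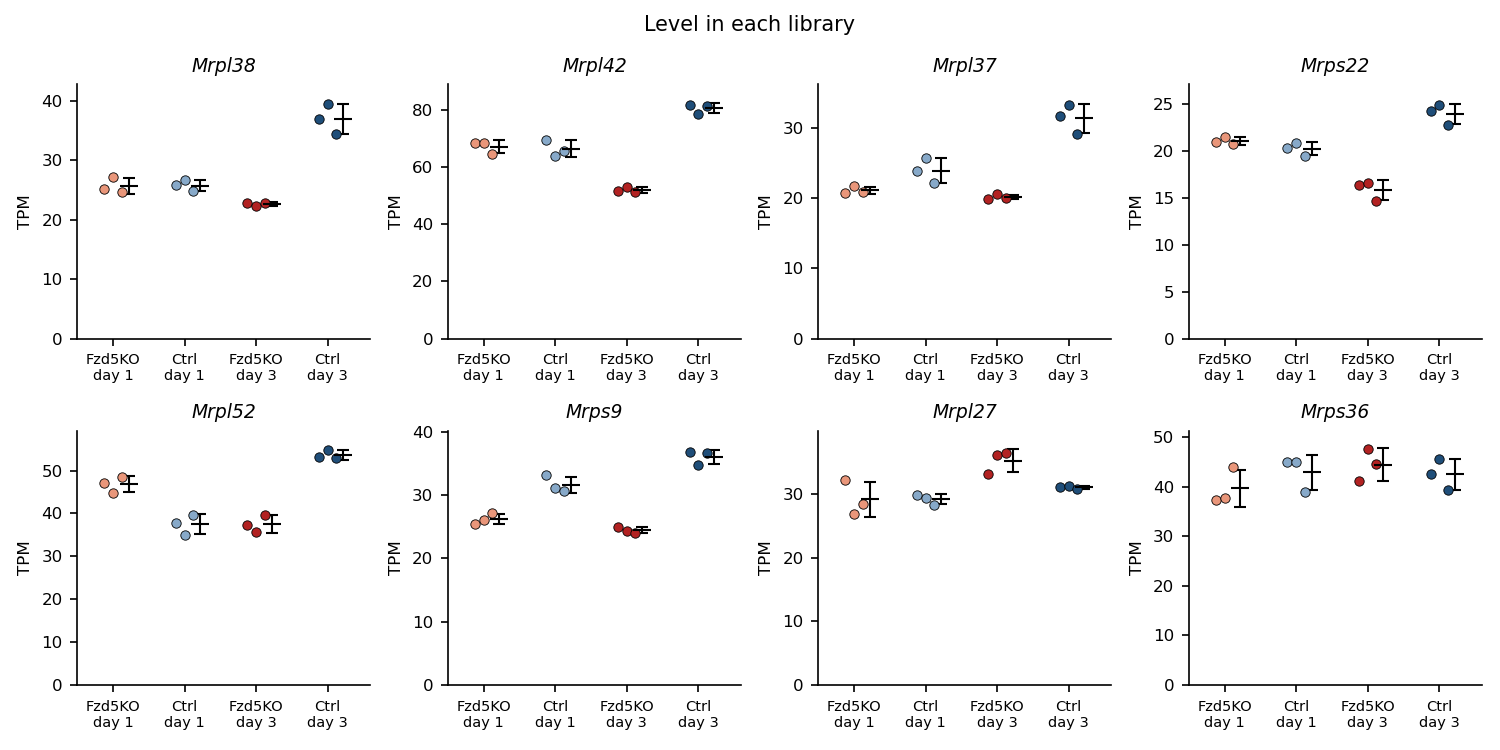
TPM of 8 genes in each library (points), with the mean and SD of 3 libraries (bars) beside them; each panel has its own axis starting at 0. Mrpl38, Mrpl42, Mrpl37, Mrps22, Mrpl52 and Mrps9 lie lower in every Fzd5KO library than in any Ctrl library at day 3, Mrpl27 lies higher, and Mrps36 overlaps; Mrpl52 lies higher in Fzd5KO at day 1 and Mrps9 lower.

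As deposited, genes of both subunits were called lower at day 3 more often than all tested genes. Among all tested genes 38.5% were called lower and 24.3% higher. Of 51 large subunit genes, 33 were called lower and 1 higher, with a median log2 difference of -0.21. Of 26 small subunit genes, 16 were called lower and 0 higher, with a median of -0.29. Under median-of-ratios scaling 15 large subunit genes were lower and 4 higher, and 10 small subunit genes lower and 1 higher. That scaling called 4248 of all 14510 tested genes lower and 4567 higher. The large subunit share called lower was then near that of all genes, and the small subunit share was above it. In both subunits the share called higher was below that of all genes. Under quantile normalization and the rescaling, limma also called 0 small subunit genes higher. Among genes with a bacterial counterpart 29 of 46 were called lower, and among mitochondrion-specific genes 20 of 31. The difference between these classes was not tested. Members at or above the median level had 25 of 39 called lower, against 31.5% of the tested genes in their level range. Those below it had 24 of 39, against 44.1% in theirs.

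Within the subunits, all 4 genes grouped here as mRNA entry and decoding were lower in Fzd5KO at day 3. The group is not the whole mRNA channel, and its median log2 difference was -0.45. All 4 were called lower as deposited, against 38.5% of all tested genes, and under the 3 other scalings. Those scalings called 4402, 4248 and 6449 of all tested genes lower, of 14510, 14510 and 14472. Whether this group differed from other sites was not tested. Mrps2, the counterpart of bacterial S2, had 11.1, 12.8 and 12.1 TPM in Fzd5KO, against 16.9, 19.1 and 17.9 TPM in Ctrl libraries (log2 difference -0.54 ± 0.08, adjusted p = 0.000124). Mrps24, the counterpart of bacterial S3 at the channel entry, had 23.6, 25.7 and 26.5 TPM in Fzd5KO, against 36.6, 37.8 and 30.9 TPM in Ctrl libraries (-0.45 ± 0.10, adjusted p = 0.00167). Mrps5, the counterpart of S5 beside it, had 55.9, 52.3 and 57.2 TPM in Fzd5KO, against 75.4, 73.0 and 76.4 TPM in Ctrl libraries (-0.44 ± 0.06, adjusted p = 5.31e-05). Mrps12, the counterpart of S12 at the decoding centre, had 31.6, 33.6 and 31.7 TPM in Fzd5KO, against 42.9, 39.7 and 44.3 TPM in Ctrl libraries (-0.38 ± 0.06, adjusted p = 0.000183). In all 4 the groups were apart, and under median-of-ratios scaling Mrps12 had -0.24. Mrps24 shares 2264 bases on the same strand with Urgcp, which averaged 24.1 TPM, so its reads may be split between the pair.

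Counts at 3 functional sites of the large subunit stood beside 38.5% called lower among all tested genes at day 3, and differences between the sites were not tested. Of 5 genes of the stalk, where elongation factors bind, 2 were called lower, a share near that of all genes, and the median log2 difference was -0.08, turning to 0.06 under median-of-ratios scaling, with 1 called higher and 0 lower. That scaling called 4567 of all 14510 tested genes higher and 4248 lower. Mrpl11 had 23.1, 21.3 and 22.3 TPM in Fzd5KO, against 28.9, 29.4 and 25.7 TPM in Ctrl libraries (-0.32 ± 0.09, adjusted p = 0.00718), and lost its call under median-of-ratios scaling (-0.18, adjusted p = 0.0569). Mrpl12, the stalk protein proper, had 40.5, 42.0 and 39.7 TPM in Fzd5KO, against 49.5, 51.04 and 45.8 TPM in Ctrl libraries (-0.25 ± 0.10, adjusted p = 0.0377). No library of either gene overlapped between genotypes, yet the call of Mrpl12 was lost in 8 alternatives, among them leaving out any one of Fzd5KO day 3 replicates 1, 2 and 3 or Ctrl day 3 replicates 1 and 2 (adjusted p 0.055 to 0.11) and median-of-ratios scaling (-0.11, adjusted p = 0.275). Mrpl10, which anchors the stalk, had 21.1, 24.6 and 23.6 TPM in Fzd5KO and 25.1, 24.5 and 23.7 TPM in Ctrl libraries, and was not called (-0.08, adjusted p = 0.320).

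In the central protuberance, which contacts the head of the small subunit, 3 of 8 genes were called lower and 1 higher, near the 38.5% called lower of all tested genes, with a median of -0.13 that was 0.00 under median-of-ratios scaling. Besides Mrpl38 and Mrpl27 these were Mrpl58, a peptidyl-tRNA hydrolase that can free stalled ribosomes (-0.33, adjusted p = 0.0136), and Mrpl48 (-0.21, adjusted p = 0.0140). Mrpl58 had 30.9, 26.6 and 31.7 TPM in Fzd5KO, against 37.2, 41.8 and 34.0 TPM in Ctrl libraries. Its call was lost without Fzd5KO day 3 replicate 2 (adjusted p = 0.0589) or Ctrl day 3 replicate 2 (0.0601) and under median-of-ratios scaling (-0.19, adjusted p = 0.109). That of Mrpl48 was lost without Ctrl day 3 replicate 1 (adjusted p = 0.0527), under quantile normalization (-0.16, adjusted p = 0.112) and under median-of-ratios scaling (-0.07, adjusted p = 0.431). Around the polypeptide exit, 3 of 6 genes were called lower, against the same 38.5%, and the median was -0.21. Mrpl24, at the rim of the tunnel exit, had 58.7, 56.1 and 59.1 TPM in Fzd5KO, against 75.9, 75.1 and 73.0 TPM in Ctrl libraries (-0.36 ± 0.06, adjusted p = 0.000179), and -0.22 under median-of-ratios scaling. Mrpl22 (-0.25, adjusted p = 0.0140) lost its call without Ctrl day 3 replicate 1 (0.0572) or 2 (0.0619), under quantile normalization (-0.14, adjusted p = 0.0795) and under median-of-ratios scaling (-0.11, adjusted p = 0.151). Mrpl23 (-0.48 ± 0.19, adjusted p = 0.0431) lost it in 10 alternatives. Summed with Mrpl23-ps1 it had 29.8, 34.5 and 29.4 TPM in Fzd5KO and 45.9, 38.7 and 34.1 TPM in Ctrl libraries, which overlapped.

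The 3 relatives of bacterial S18 differed in their calls, although the differences between them were not tested. Mrps18a of the large subunit had 26.7, 29.6 and 27.7 TPM in Fzd5KO, against 31.9, 31.1 and 32.2 TPM in Ctrl libraries at day 3. Mrps18b of the small subunit had 43.7, 43.8 and 47.3 TPM in Fzd5KO, against 49.6, 49.97 and 52.9 TPM in Ctrl libraries. No library overlapped between genotypes, and both Mrps18a (-0.17, adjusted p = 0.0126) and Mrps18b (-0.18, adjusted p = 0.00551) were called lower. Mrps18c, the one that takes the bacterial position, had 35.6, 34.2 and 31.5 TPM in Fzd5KO and 32.4, 31.9 and 34.1 TPM in Ctrl libraries and was not called (0.04, adjusted p = 0.682). Under median-of-ratios scaling none of the 3 was called, and without Fzd5KO day 3 replicate 1 Mrps18a was not (adjusted p = 0.0531). Mrps34, another mitochondrion-specific small subunit gene, had 21.95, 23.1 and 22.9 TPM in Fzd5KO and 27.9, 21.7 and 19.9 TPM in Ctrl libraries, which overlapped (-0.02, adjusted p = 0.887).

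Calls fell on both abundant and scarce members. Of the 4 most abundant, Mrps21 (-0.08, adjusted p = 0.345) and Mrpl51 (-0.09, adjusted p = 0.235) were not called, while Mrpl42 and Mrpl24 were called lower. Of the 4 least abundant, Mrps30 (-0.40 ± 0.09, adjusted p = 0.00195), Mrpl1 (-0.45 ± 0.06, adjusted p = 3.79e-05) and Mrpl44 (-0.21 ± 0.06, adjusted p = 0.0056) were called lower. Under quantile normalization Mrps30 (-0.17, adjusted p = 0.0585) and Mrpl44 (-0.04, adjusted p = 0.632) lost their calls and Mrpl1 had -0.24, and under median-of-ratios scaling Mrpl44 lost its call (-0.08, adjusted p = 0.288). Mrpl1 carries the mobile L1 stalk, and Mrpl44 has a fold of the ribonuclease III family. Mrps6, the other low member, had 10.6, 10.8 and 9.42 TPM in Fzd5KO, against 13.4, 11.4 and 12.3 TPM in Ctrl libraries, which did not overlap, and was not called (-0.24, adjusted p = 0.0634). Calls were spread over the motif classes as well: 14 of 26 genes with the ETS motif and 31 of 43 without it were called lower, 7 of 8 with and 38 of 61 without the YY1 motif, 4 of 8 with and 41 of 61 without the NRF1 motif, and 4 of 5 with and 41 of 64 without the E-box. Of all tested genes 38.5% were called lower, and the share among tested genes with each motif is not given here. These counts are a description and were not tested.

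The genotype difference itself changed between the days. In the test of the day 3 difference minus the day 1 difference, 35 of 78 members were called lower (44.9%), against 19.1% of all tested genes, and 0 were called higher, against 25.3%. At an unadjusted p below 0.05, limma put 0 members higher too, as it did under the 3 other scalings. The members' median was -0.25, that of all genes 0.01, and of the 7056 genes in the members' level range 20.8% were lower and 32.2% higher. Without Fzd5KO day 1 replicate 1, 1 member was called higher. Quantile normalization gave 51 members lower, median-of-ratios scaling 39 and the rescaling 64, and all 35 called as deposited were called under each. Of all tested genes they called 3225, 2973 and 4510 lower and 3132, 3667 and 2625 higher, of 14510, 14510 and 14472. The rescaling moved the median of all genes by -0.18; relative to all genes the members' median was -0.26 as deposited and -0.31, -0.27 and -0.28 under the 3 scalings.

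Mrpl52 changed most between the days, since it was higher in Fzd5KO at day 1 and lower at day 3. At day 3 it had 37.4, 35.6 and 39.7 TPM in Fzd5KO, against 53.2, 54.9 and 52.8 TPM in Ctrl libraries (-0.50 ± 0.05, adjusted p = 9.41e-06). The groups were apart at both days and in opposite order. The difference between days was -0.82 ± 0.08 (adjusted p = 5.9e-06). For Mrpl38 it was -0.68 ± 0.08 (adjusted p = 3.42e-05) and for Mrpl42 -0.64 ± 0.06 (adjusted p = 3.79e-06), both of which overlapped between genotypes at day 1. All 4 genes of mRNA entry and decoding were also called lower here, against 19.1% of all tested genes, from -0.57 for Mrps24 to -0.26 for Mrps12. The call of Mrps12 was lost without any one of Fzd5KO day 1 replicate 2, Fzd5KO day 3 replicates 1 and 3, Ctrl day 1 replicate 1, and Ctrl day 3 replicates 1 and 3 (adjusted p up to 0.0627). Mrps9, already lower at day 1, had 24.98, 24.3 and 24.1 TPM in Fzd5KO, against 36.9, 34.8 and 36.6 TPM in Ctrl libraries at day 3 (-0.54 ± 0.04, adjusted p = 9.63e-07), and its difference between days was -0.28.

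**Figure D4:**
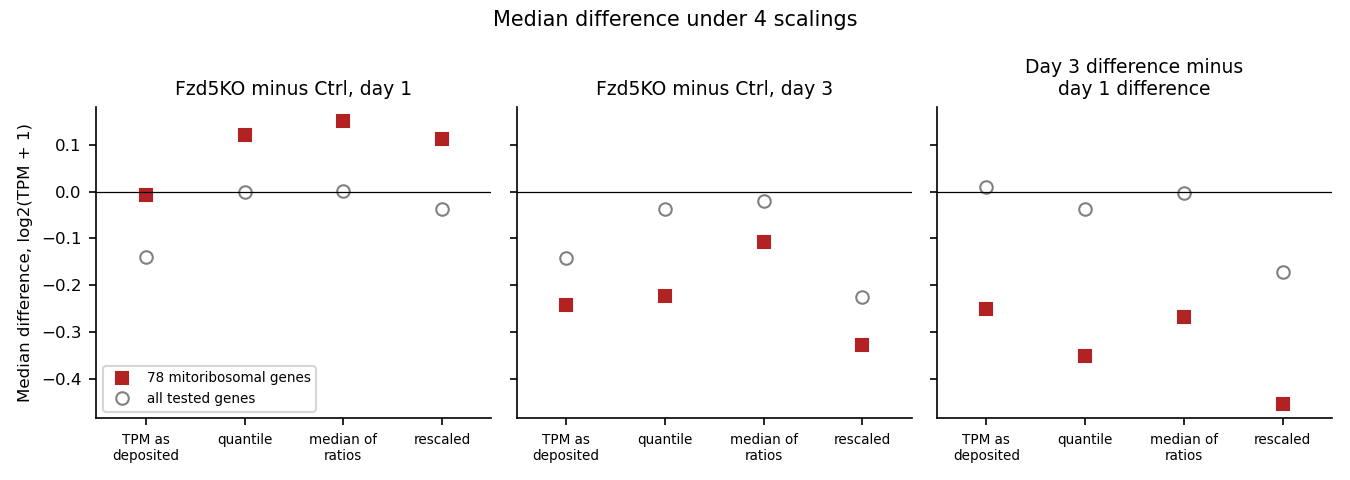
Median log2 difference of the 78 genes (squares) and of all tested genes (open circles) in the values as deposited and under 3 other scalings, for the genotype difference at day 1, at day 3 and for its change between days. At day 1 the members' median is -0.01 as deposited and 0.11 to 0.15 under the others; at day 3 it is below the median of all genes in each, and for the change between days it lies 0.26 to 0.31 below it.

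Over time, calls were mostly of higher members in Ctrl and of lower members in Fzd5KO, where most members were not called. In Ctrl, 34 of 78 were higher at day 3 than at day 1, against 25% of all tested genes, and 0 were lower, against 11%. The median log2 difference, day 3 minus day 1, was 0.20, and that of all genes 0.11. By limma 1 member was lower at an unadjusted p below 0.05. In 40 of the 78 every day 3 library lay above every day 1 library, which held for 33% of all tested genes. Quantile normalization gave 15 higher and 2 lower, median-of-ratios scaling 11 higher and 2 lower, and the rescaling 31 higher and 0 lower. Of all tested genes these scalings called 2226, 1774 and 3327 higher and 2295, 2552 and 1745 lower, of 14510, 14510 and 14472. They moved the median of all genes by -0.09, -0.11 and -0.01. Under quantile normalization and median-of-ratios scaling the members' share called higher was only little above that of all genes, and their share called lower was below it. Relative to all genes the members' median was 0.08 higher as deposited and 0.07, 0.07 and 0.08 higher under the scalings. In the level range of the members, 31.9% of genes were called higher and 11.2% lower.

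The largest rises in Ctrl were those of Mrps6, Mrpl52 and Mrpl38. Mrps6, the counterpart of a bacterial small subunit protein, had 13.4, 11.4 and 12.3 TPM at day 3, against 7.67, 10.1 and 7.52 TPM at day 1 (0.51 ± 0.11, adjusted p = 0.00344). It shares 29152 bases on the same strand with Slc5a3, which averaged 4.77 TPM. Mrpl52 rose by 0.51 ± 0.05 (adjusted p = 4e-05) and Mrpl38 by 0.50 ± 0.06 (adjusted p = 5.43e-05), with no overlap between days in any of the 3. Mrpl55, the counterpart of bacterial L31, had 19.0, 22.5 and 22.4 TPM at day 3, against 15.7, 15.1 and 15.3 TPM at day 1 (0.44 ± 0.06, adjusted p = 0.000243).

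In Fzd5KO, 14 of 78 members were lower at day 3 than at day 1, against 10.5% of all tested genes, and 2 were higher, against 34.4%. The median was -0.07, and that of all genes 0.11. Mrps22 fell most, to 16.3, 16.6 and 14.7 TPM at day 3, against 20.9, 21.5 and 20.7 TPM at day 1 (-0.39 ± 0.06, adjusted p = 0.000142). Mrpl42 had 51.5, 53.0 and 51.3 TPM at day 3, against 68.5, 68.2 and 64.6 TPM at day 1 (-0.36 ± 0.04, adjusted p = 1.87e-05). Mrpl52 fell by 0.31 ± 0.05 on the log2 scale (adjusted p = 0.000633), and in all 3 the days were apart. Mrpl55 (0.28 ± 0.06, adjusted p = 0.00299) and Mrpl27 (0.27 ± 0.06, adjusted p = 0.00417) were called higher, and neither was under the other 3 scalings. Those scalings moved the median of all genes by -0.12, -0.12 and -0.19 and gave 54, 44 and 60 members lower and 0 higher. Of all tested genes they called 2855, 2792 and 3583 lower and 3040, 3533 and 2795 higher, of 14510, 14510 and 14472. Relative to all genes the members' median was -0.18 as deposited and -0.27, -0.20 and -0.21. The 14 calls were called again under each scaling, but the count was 9 without Fzd5KO day 1 replicate 1, 7 without Fzd5KO day 1 replicate 3 and 8 without Fzd5KO day 3 replicate 2. The 5 comparisons share libraries, so their counts are not independent of each other.

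Genes that work with the mitoribosome were also mostly lower in Fzd5KO at day 3. The gene lists in this and the following paragraphs were chosen with earlier results of these data known. They are therefore a description and not independent support. Of 5 tested of 6 listed mitoribosomal proteins with other names, 4 were called lower and 0 higher, against 38.5% and 24.3% of all tested genes, with a median log2 difference of -0.47. Ptcd3, a small subunit protein with pentatricopeptide repeats, had 29.98, 31.8 and 34.3 TPM in Fzd5KO, against 49.5, 51.2 and 51.3 TPM in Ctrl libraries (-0.65 ± 0.05, adjusted p = 5.71e-07). Chchd1 (-0.51, adjusted p = 9.55e-05), Gadd45gip1 (-0.44, adjusted p = 0.000543) and Dap3 (-0.47, adjusted p = 0.00275) were called lower, and Aurkaip1 (-0.16, adjusted p = 0.131) was not. Of 31 tested of 32 listed genes of mitoribosome assembly and rRNA modification, 22 were called lower and 2 higher (median -0.47). C1qbp, a matrix chaperone needed for mitochondrial translation, had 47.7, 46.4 and 46.7 TPM in Fzd5KO, against 75.2, 76.8 and 70.5 TPM in Ctrl libraries (-0.65 ± 0.05, adjusted p = 4.81e-07). The rRNA-binding Fastkd2 (-0.77, adjusted p = 3.9e-05) and the large subunit assembly GTPase Gtpbp10 (-0.65, adjusted p = 3.3e-05) were also lower. Mrm1, which methylates the large rRNA, was one of the 2 called higher, with 22.1, 19.6 and 19.9 TPM in Fzd5KO, against 11.5, 10.9 and 9.99 TPM in Ctrl libraries (0.87 ± 0.12, adjusted p = 6.94e-05).

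Of 16 tested of 17 listed mitochondrial translation factors 13 were called lower and 0 higher (median -0.33), again against 38.5% and 24.3% of all tested genes. Lrpprc, which stabilizes mitochondrial mRNAs, had 33.6, 35.2 and 35.3 TPM in Fzd5KO, against 57.3, 53.0 and 53.1 TPM in Ctrl libraries (-0.64 ± 0.04, adjusted p = 2.11e-07). The elongation factor Tufm (-0.31, adjusted p = 3.82e-05) and the inner membrane insertase Oxa1l (-0.48, adjusted p = 0.000185) were also lower. Of 22 tRNA synthetases and related enzymes of the organelle 18 were called lower and 0 higher (median -0.47). Ears2, which charges tRNA with glutamate, had 3.63, 3.70 and 3.96 TPM in Fzd5KO, against 9.87, 8.17 and 8.12 TPM in Ctrl libraries (-1.02 ± 0.08, adjusted p = 6.8e-07). The counts of the assembly genes, translation factors and synthetases under quantile normalization were 3 higher and 14 lower, 1 higher and 7 lower, and 0 higher and 15 lower. Under median-of-ratios scaling they were 2 and 17, 1 and 7, and 0 and 14, and under the rescaling 1 and 24, 0 and 14, and 0 and 20. Of all tested genes these 3 scalings called 3984, 4567 and 3102 higher and 4402, 4248 and 6449 lower, of 14510, 14510 and 14472.

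Of 11 genes of mitochondrial DNA transcription and replication, 6 were called lower and 1 higher (median -0.30), against 38.5% and 24.3% of all tested genes. Polrmt, the mitochondrial RNA polymerase, had 20.2, 24.99 and 24.9 TPM in Fzd5KO, against 45.5, 43.1 and 42.7 TPM in Ctrl libraries (-0.88 ± 0.11, adjusted p = 2.13e-05). Tfam, which packages mitochondrial DNA and helps to start its transcription, had 18.2, 13.4 and 19.7 TPM in Fzd5KO, against 26.3, 27.6 and 33.7 TPM in Ctrl libraries (-0.75 ± 0.17, adjusted p = 0.00205). The helicase Twnk (-0.83, adjusted p = 4.51e-06), whose gene overlaps Mrpl43 on the opposite strand, was lower, and Mterf2 (0.74, adjusted p = 2.75e-05) was higher. The rRNA of the small subunit, mt-Rnr1, had 6368, 5999 and 5513 TPM in Fzd5KO, against 8266, 8854 and 8103 TPM in Ctrl libraries (-0.50 ± 0.08, adjusted p = 0.000155). That of the large subunit, mt-Rnr2, had 31792, 30799 and 28104 TPM in Fzd5KO and 36878, 34353 and 30941 TPM in Ctrl libraries, which overlapped, and was not called (-0.17, adjusted p = 0.0768; 0.16 under quantile normalization). Of the 13 mitochondrially encoded mRNAs, the templates of the mitoribosome, 9 were called lower and 0 higher, led by mt-Nd4 (-0.63, adjusted p = 5e-06) and mt-Nd2 (-0.59, adjusted p = 1.25e-05), both subunits of complex I. Under median-of-ratios scaling 6 of the 13 were called lower, against 4248 of all 14510 tested genes.

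Nuclear regulators of mitochondrial genes did not move one way. Of 11, 7 were called lower and 3 higher at day 3 (median -0.30), against 38.5% and 24.3% of all tested genes. Myc, a growth factor-responsive transcription factor, had 9.30, 11.8 and 10.0 TPM in Fzd5KO, against 19.3, 21.2 and 18.1 TPM in Ctrl libraries (-0.86 ± 0.09, adjusted p = 7.69e-06). Its partner Max had 148, 149 and 146 TPM in Fzd5KO, against 70.0, 71.3 and 65.5 TPM in Ctrl libraries (1.09 ± 0.05, adjusted p = 5.29e-09). Ppargc1a, a coactivator of mitochondrial biogenesis, had 40.6, 36.7 and 38.99 TPM in Fzd5KO, against 28.5, 24.5 and 23.6 TPM in Ctrl libraries (0.59 ± 0.07, adjusted p = 2.45e-05). Its relative Ppargc1b (-0.90, adjusted p = 2.02e-05) was lower, and the nuclear receptor Esrra (0.49, adjusted p = 1.4e-05) was higher. Mycn (-0.82), Pprc1 (-0.77), Nrf1 (-0.46), Yy1 (-0.30) and Gabpb1 (-0.21) were also called lower, and Gabpa (-0.12) was not called. Counts of this list under the other scalings are not given here. Groups were apart in Myc, Max and Ppargc1a at day 3. The cytosolic ribosomal proteins had 81 of 88 genes called lower and 2 higher, with a median of -0.62; the difference between the cytosolic and mitochondrial sets was not tested.

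**Figure D5:**
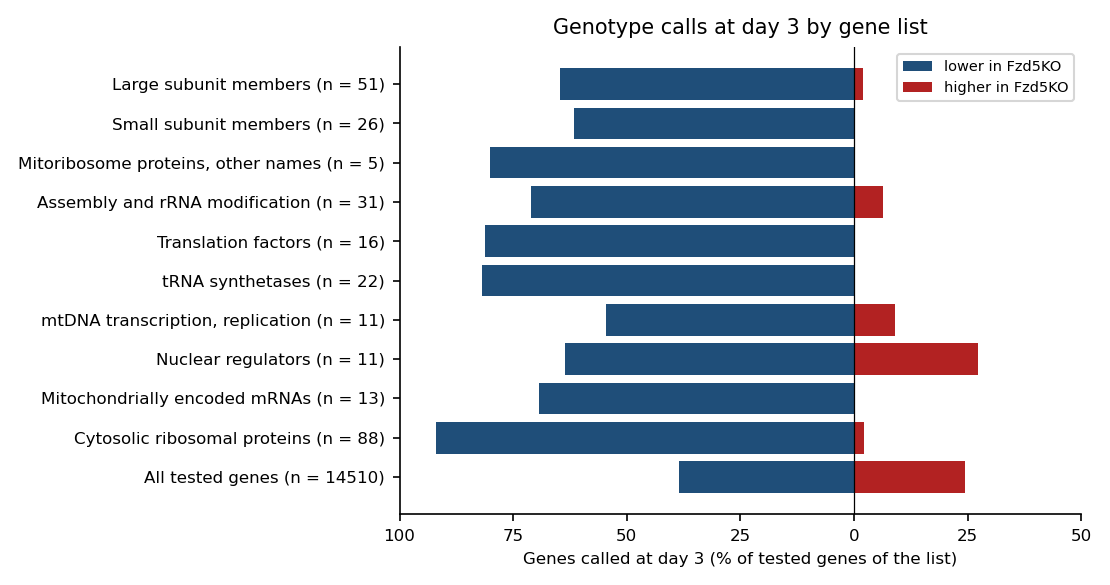
Share of the tested genes of each list that were called lower (left, blue) or higher (right, red) in Fzd5KO than in Ctrl at day 3, in the values as deposited. Of large subunit genes 33 of 51 and of small subunit genes 16 of 26 are called lower, against 38.5% of all tested genes at the bottom. Under median-of-ratios scaling 25 of the 78 members were called lower and 6 higher, against 4248 and 4567 of all 14510 tested genes.

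Levels of cell type markers also differed between the groups at day 3, which bulk RNA cannot assign to cell numbers or to RNA per cell. Of all tested genes 38.5% were called lower and 24.3% higher. All 10 crypt-base stem cell markers were called lower in Fzd5KO, and their summed level was 98.2 to 106 TPM in Fzd5KO and 708 to 756 TPM in Ctrl libraries. It was already lower at day 1, with 155 to 162 TPM in Fzd5KO and 480 to 502 TPM in Ctrl libraries. All 18 cell cycle genes were lower, with sums of 351 to 362 TPM in Fzd5KO and 679 to 710 TPM in Ctrl libraries. At day 1 these sums were 464 to 477 TPM in Fzd5KO and 536 to 557 TPM in Ctrl libraries. Mki67, a marker of dividing cells, had a log2 difference of -0.97 at day 3. All 7 Paneth cell markers were lower (2947 to 3158 TPM in Fzd5KO and 8311 to 8928 TPM in Ctrl), as were all 7 goblet cell markers (5156 to 5529 TPM in Fzd5KO and 7929 to 8390 TPM in Ctrl), and 8 of 9 enterocyte markers were higher, with sums of 38701 to 40031 TPM in Fzd5KO and 17988 to 19057 TPM in Ctrl libraries. At day 1 goblet cell markers summed to 4941 to 5137 TPM in Fzd5KO and 8305 to 9002 TPM in Ctrl libraries. Paneth cell markers then summed to 8535 to 8880 TPM in Fzd5KO and 9245 to 9853 TPM in Ctrl libraries. Enterocyte markers then summed to 24174 to 24880 TPM in Fzd5KO and 21620 to 22593 TPM in Ctrl libraries. Epithelial markers were present in every library, with 7 of 10 called higher and 3 lower and sums of 7931 to 8105 TPM in Fzd5KO and 5460 to 5648 TPM in Ctrl at day 3.

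Markers of cells outside the epithelium moved as well at day 3, when 24.3% of all tested genes were called higher and 38.5% lower. All 9 tested of 10 T cell markers were called higher, with sums of 173 to 197 TPM in Fzd5KO and 45.8 to 48.9 TPM in Ctrl libraries at day 3, and 121 to 143 TPM in Fzd5KO and 184 to 204 TPM in Ctrl libraries at day 1. All 6 tested of 7 B and plasma cell markers were higher (19.5 to 22.5 TPM in Fzd5KO and 3.89 to 6.39 TPM in Ctrl), as were 5 of 7 tested of 8 myeloid markers (27.5 to 36.3 TPM in Fzd5KO and 14.2 to 15.7 TPM in Ctrl). Of fibroblast markers 0 of 4 tested of 7 were called by limma, and 0 had an unadjusted p below 0.05 (13.4 to 16.4 TPM in Fzd5KO and 12.6 to 14.96 TPM in Ctrl). The 1 tested of 6 endothelial markers was higher (sums over all 6 of 2.47 to 2.80 TPM in Fzd5KO and 1.28 to 2.16 TPM in Ctrl). All 5 erythroid markers were lower (54.4 to 69.4 TPM in Fzd5KO and 201 to 228 TPM in Ctrl). No summed marker was at 0 in any day 3 library except 1 endothelial marker in Ctrl. The part of these shifts in the values of the mitoribosomal genes was not tested.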

How the data were processed

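The authors deposited 1 table of TPM values for 12 libraries. Per the submitters' processing notes, bcl2fastq 2.18, STAR 2.7.3a, RSEM (version not given) and the build mm10 were used, with roles not stated. Per the labels' protocols, libraries came from total RNA with a stranded kit. Depth is unknown, so no counting intervals are given. The 14510 genes that reached 1 TPM in 3 or more libraries entered the test on log2(TPM + 1) with limma 3.58.1 (R 4.3.3), with 4 group means, an intensity trend and 8 residual degrees of freedom. All adjusted p-values are from limma with Benjamini-Hochberg adjustment over these genes, called below 0.05. Errors after ± are standard errors of the fit from 3 libraries a group. The same steps were tested on simulated data. Tables and figures were made with Python 3.11.15, pandas 2.3.3 and matplotlib 3.10.9.

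Named were the called members with the largest change (5 per direction at each day, 3 for the other comparisons), the 4 highest and 4 lowest in level, members of structural groups, 7 fixed members, and in each gene list up to 4 called genes with the smallest p. Other genes singled out were chosen after their values were seen. The members and gene lists were chosen with earlier results of these data known. Alternatives were pseudocounts of 0.1 and 5, no filter and a filter of 5 TPM, 3 other scalings, no trend, array weights, a replicate block, fits of the compared groups alone, and leaving out each library.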

Additional observations from a re-analysis of the deposited data

Results flagged for a closer look

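In 19 of the members described by name, the genotype difference itself differed between the days in the limma test of that difference (adjusted p below 0.05), and in each it was lower at day 3 than at day 1. Members were named in part for large changes in these same comparisons, so this count comes from a selected list. Of all 78 members 35 were called lower, against 19.1% of all tested genes, and 0 higher, against 25.3%. The values below are log2 differences, day 3 minus day 1 of Fzd5KO minus Ctrl. Among large subunit genes they were -0.82 for Mrpl52, -0.68 for Mrpl38, -0.64 for Mrpl42, -0.51 for Mrpl13, -0.44 for Mrpl37 and -0.42 for the stalk base gene Mrpl11. They were -0.39 for Mrpl58, -0.37 for Mrps30, -0.37 for Mrpl35, -0.36 for Mrpl1 and -0.34 for Mrpl44. Among small subunit genes they were -0.62 for Mrps22, -0.57 for Mrps24, -0.54 for Mrps6, -0.50 for Mrps2, -0.47 for Mrps5, -0.28 for Mrps9, -0.26 for Mrps12 and -0.21 for Mrps18b. The call was lost in 10 alternatives for Mrpl58, 9 for Mrps30, 7 for Mrps12 and 4 for Mrps18b, with adjusted p up to 0.103, 0.0716, 0.0627 and 0.0565. Cell cycle genes summed to 351 to 362 TPM in Fzd5KO and 679 to 710 TPM in Ctrl at day 3, and to 464 to 477 TPM in Fzd5KO and 536 to 557 TPM in Ctrl at day 1, and their part in these values was not tested.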

How the results depend on the processing

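Counts of called members depended mainly on the scaling. Under the quantile, median-of-ratios and rescaled values, in that order, day 1 gave 15, 27 and 13 higher (3 as deposited) and 0, 0 and 0 lower (1 as deposited). Of all tested genes 851, 1277 and 785 were then higher (309 as deposited) and 920, 911 and 1085 lower (3313 as deposited). The tested genes numbered 14510, 14510 and 14472, and 14510 as deposited. At day 3 median-of-ratios scaling gave 6 higher and 25 lower, and the rescaling 0 higher, against 1 and 49. Of all tested genes the former called 4567 higher and 4248 lower, and the rescaling 3102 higher, against 3529 and 5584 as deposited. For the change between days the rescaling gave 64 lower, against 35, and of all tested genes 4510 lower, against 2769. Over time in Fzd5KO the scalings gave 0, 0 and 0 higher, against 2, and 54, 44 and 60 lower, against 14. Of all tested genes 3040, 3533 and 2795 were higher, against 4985, and 2855, 2792 and 3583 lower, against 1525. Over time in Ctrl the first 2 gave 15 and 11 higher, against 34, and 2 and 2 lower, against 0. Of all tested genes 2226 and 1774 were higher, against 3633, and 2295 and 2552 lower, against 1603. Array weights gave 5 higher and 2 lower at day 1, beside 338 and 3476 of all tested genes. No filter gave 0 higher at day 3, beside 3898 of 31827 genes. Fits of the compared groups alone gave 2 higher at day 3 and 1 lower over time in Ctrl, beside 3405 and 1295 of all tested genes. The cause was not tested.

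Leaving out each library gave ranges of 1 to 4 higher and 1 to 3 lower at day 1, 0 to 2 higher and 40 to 49 lower at day 3, 0 to 1 higher and 31 to 37 lower for the change between days, 2 to 4 higher and 7 to 16 lower over time in Fzd5KO, and 24 to 36 higher and 0 to 1 lower over time in Ctrl. Counts of all tested genes without each library are not given here. The 4 higher over time in Fzd5KO came without Fzd5KO day 3 replicate 1 or Ctrl day 1 replicate 1. With the replicate block, 2 members were lower at day 1 and 48 at day 3. Same-numbered libraries did not deviate together (correlations of -0.0692 to 0.0926 over 18 pairs), so the numbers were not taken as pairs. Of 80 called values of named members, 41 were called under every alternative run on them and 0 turned direction. Depth is unknown, so which differences it could hide cannot be stated.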
